A study of Mus musculus with 8 samples.

Results

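The genes described here are Satb1 and 31 genes whose products fold, remodel or chemically mark chromatin: the loop anchor Ctcf and cohesin, deacetylases and corepressors, ATP-dependent remodellers, acetyltransferases, nuclear body genes, and enzymes of histone and DNA methylation. They were picked by symbol from the deposited normalized table, and all 32 listed symbols were found among its 16418 genes. RNA-seq (poly(A) RNA, single 75-base reads) was carried out on naive CD4 T cells, purified by a sort for CD3, CD4 and CD62L with CD25 absent and CD44 low or absent. The labels name spleen and lymph node as the source, and the extraction text names spleen. All 8 libraries came from mice of 1 genotype, Satb1 fl/fl with CD4-CreERT2 wt/+, in which a tamoxifen-dependent Cre recombinase is driven by CD4 sequences and can remove the floxed part of Satb1. The 4 KO libraries (Sample_2907_KO, Sample_2908_KO, Sample_2909_KO and Sample_2910_KO) came from mice given tamoxifen, and the 4 WT libraries (Sample_2911_WT, Sample_2913_WT, Sample_2914_WT and Sample_2915_WT) from untreated mice. The sources used here do not state dose, duration, age or sex. The drug and the intended deletion coincide, so their effects cannot be told apart, and KO names the group without stating that Satb1 was lost. No label says that each library is a separate animal, and p-values therefore reflect only library-to-library spread, which may be technical.

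SATB1 is a DNA-binding protein of T lineage cells that holds AT-rich stretches of chromatin in place and recruits remodelling and histone-modifying enzymes to them. Chromatin loops form when cohesin, a ring built from SMC1A, SMC3, RAD21 and STAG1 or STAG2, is loaded by NIPBL, extrudes DNA until it meets CTCF, and is released by WAPL. Remodellers such as the BAF, NuRD and ISWI complexes move nucleosomes, while acetyltransferases and deacetylases, the Polycomb enzyme EZH2, DNA methyltransferases and TET dioxygenases write and erase the marks that go with open or closed chromatin.

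Counted reads numbered 7544075 to 9253620 per KO library and 5227758 to 21998174 per WT library. Summed over the 10 naive CD4 T cell markers, the level was 8030 to 8709 CPM (reads per 1000000 counted, with libraries scaled to each other by the TMM method) in KO, against 8035 to 8465 CPM in WT. B cell markers summed to 3.57 to 5.62 CPM in KO, against 2.76 to 4.33 CPM in WT. NK cell markers summed to 41.1 to 50.4 CPM in KO, against 46.0 to 51.3 CPM in WT, and CD8 genes to 9.65 to 14.7 CPM in KO, against 13.2 to 18.2 CPM in WT. Myeloid markers summed to 21.2 to 30.4 CPM in KO, against 13.2 to 42.7 CPM in WT, with the highest value in Sample_2911_WT. Markers of dividing cells summed to 10.6 to 16.4 CPM in KO, against 14.3 to 25.1 CPM in WT. The groups overlapped for each of these sums, and every marker had reads. A sum can hide opposite changes in its genes. Of the 10 naive CD4 T cell markers 2 rose and 3 fell at an edgeR adjusted p under 0.05. That is 50%, beside 6.39% of all genes tested. Among the tested markers, 1 of 4 myeloid markers rose and 1 of 4 markers of dividing cells fell. None of the tested B cell, NK cell and CD8 genes passed. Genes of regulatory T cells summed to 126 to 213 CPM in KO, against 69.7 to 78.4 CPM in WT, and 15 type I interferon response genes to 1184 to 1481 CPM in KO, against 722 to 938 CPM in WT. Both of the last sums separated the groups in every library, and their part in the results on chromatin genes was not tested. Of the 6 regulatory T cell genes 2 rose and 0 fell at an edgeR adjusted p under 0.05, which is 33.3%, beside 6.39% of all genes tested. At an unadjusted p under 0.05 there were 3 of the 6, beside 18% of all genes tested.

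Satb1 (ENSMUSG00000023927.15), on the minus strand of chromosome 17 (51736187 to 51833290 in mm10), had the highest mean CPM of the 32 genes in both groups. It had 855, 1032, 839.6 and 913 CPM in the KO libraries, against 987, 1015, 1046 and 1083 CPM in the WT libraries. One KO library, Sample_2908_KO, lay inside the WT range, and the other KO libraries lay below every WT library. The log2 fold change of KO relative to WT was -0.18 (SE 0.059), which missed the threshold of 0.05 (edgeR quasi-likelihood test, adjusted p = 0.0582). Without Sample_2908_KO it was -0.25 and passed (adjusted p = 0.00152), and it also passed with limma-voom using sample weights, with library size as the only scaling and without a count filter. The count is given for the gene as a whole, which has 19027 exon bases in the GENCODE M21 annotation. The annotation used for counting is not stated. The sources used here do not say which exons are floxed, so the count does not measure the floxed part alone. As in any bulk measurement, fewer cells with a transcript and less transcript per cell cannot be told apart.

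The annotation places 5 genes of the provisional TEC class (to be tested experimentally) on the Satb1 strand within the Satb1 gene, and their reads showed a far larger difference between the groups than Satb1. For every 1000 Satb1 reads, these 5 genes together had 4.71, 2.76, 4.89 and 4.11 reads in the KO libraries, against 32.8, 25.4, 31.7 and 29.8 in the WT libraries. In each KO library the proportion was below that of every WT library, Sample_2908_KO included, in which it was lowest. The bulk of these reads came from E430014B02Rik, C230085N15Rik and Gm36931, which had 1 to 15, 8 to 15 and 5 to 12 reads per library in KO, against 49 to 264, 36 to 224 and 37 to 236 in WT. In the edgeR fit of all genes, E430014B02Rik, C230085N15Rik and Gm36931 had log2 fold changes of -3.33, -2.80 and -3.30. Their edgeR adjusted p-values were 1.32e-07, 1.40e-08 and 2.86e-10. The smaller members of the set, Gm37248 and 5830444F18Rik, had too few reads for the test. Gm37248 had 1, 5, 3 and 1 reads in KO and 10, 6, 18 and 8 in WT, and 5830444F18Rik had 0, 0, 2 and 0 in KO and 2, 2, 2 and 9 in WT. The set was put together after its values were seen, so its summed difference is given as a description with no test. Gm36931 shares 156 exon bases with Satb1 and the other 4 lie between its annotated exons and share none. Whether reads of Satb1 transcripts were counted to the nested genes, or the reverse, depends on the counter and its strand setting. No source used here states either. Gm6934, which overlaps Satb1 on the opposite strand, averaged 7.86 CPM in KO, against 8.02 CPM in WT (edgeR adjusted p = 0.986).

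**Figure D1:**
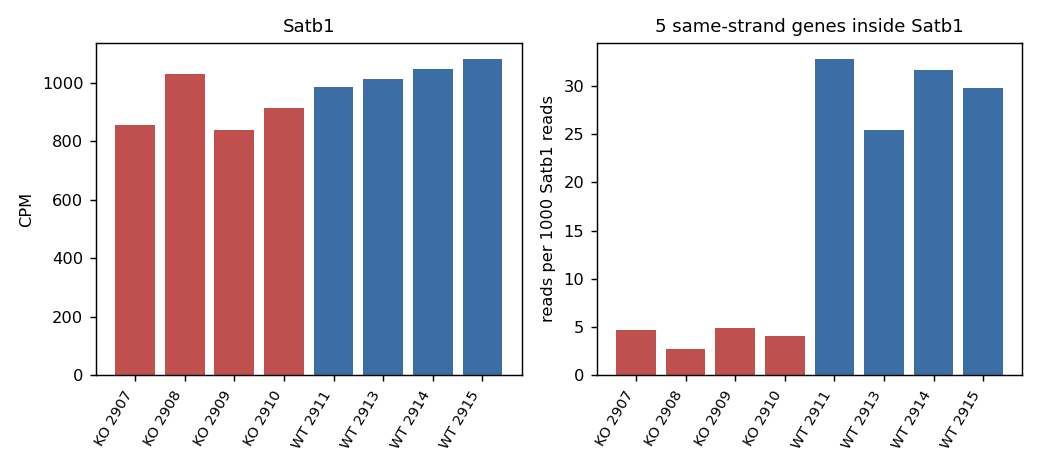
Satb1 level in CPM (left) and reads of 5 same-strand genes annotated inside Satb1 per 1000 Satb1 reads (right), one bar per library, KO in red and WT in blue. Satb1 stood between 839.6 and 1032 CPM in KO and between 987 and 1083 CPM in WT, whereas the nested genes had at most 4.89 reads per 1000 in KO and at least 25.4 in WT.

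Of the 32 genes, all passed the filter on low counts and 4 changed at an adjusted p under 0.05, which is 12.5% of them, beside a background of 6.39% of all 11772 genes tested. Among tested genes at least as abundant as the lowest of the 32, 8.75% changed. The remodeller gene Baz1a and the nuclear body genes Pml and Sp100 rose, which makes 3 (background for higher in KO 3.98%), and the DNA demethylation gene Tet1 fell, which makes 1 (background for lower in KO 2.41%). All of these changes were small, between 1.14-fold and 1.25-fold. The median log2 fold change over the 32 genes was 0.01, against 0.00 over all genes tested, and the median size without sign was 0.09, against 0.11 over all genes tested and 0.075 over the tested genes at least as abundant as the lowest of the 32. A further 7 genes had an unadjusted p under 0.05 and did not pass after adjustment: Satb1, Kat2b, Ctbp1, Ep300, Ctcf, Wapl and Ezh2. Together with the 4 changed genes this is 34.4% of the 32 at an unadjusted p under 0.05, beside a background of 18%. That background includes less abundant genes, and this share was not computed for genes at least as abundant as the lowest of the 32.

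**Figure D2:**
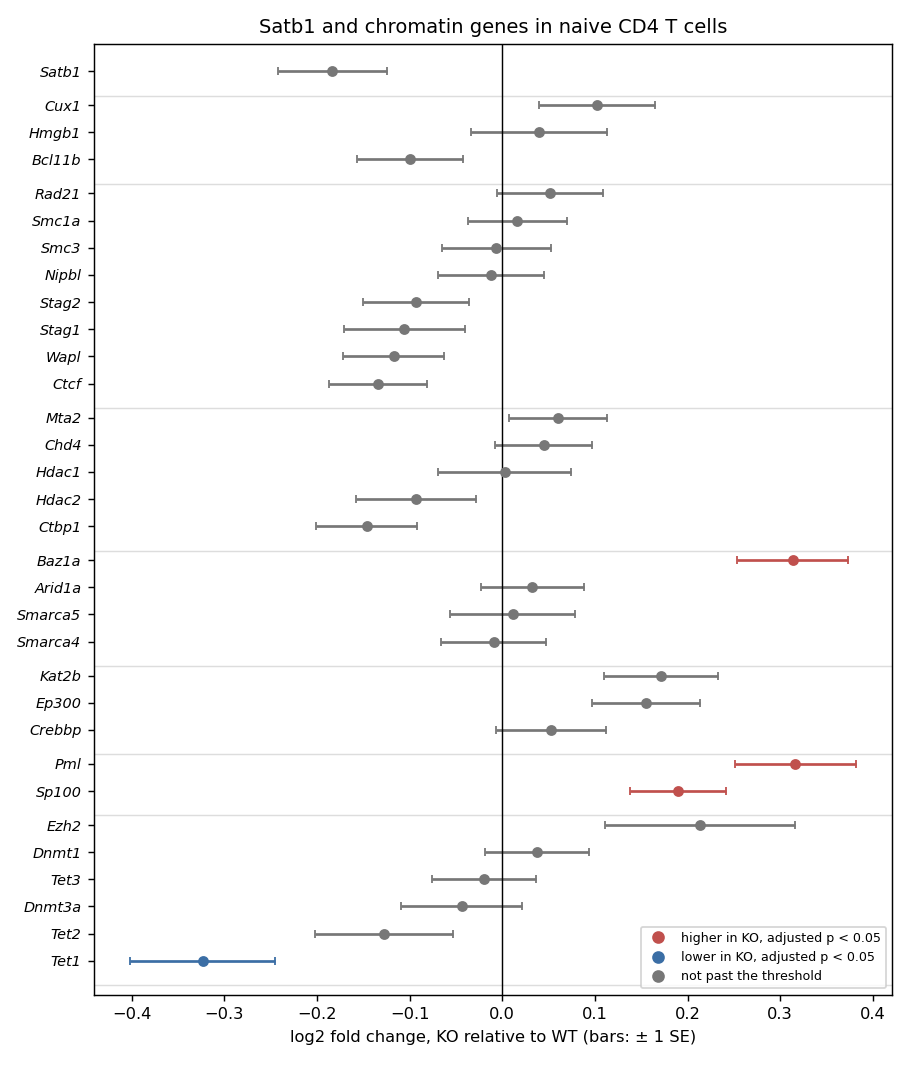
Log2 fold change of KO relative to WT for the 32 genes, grouped by role from top to bottom, with bars of 1 SE (edgeR, 4 KO and 4 WT libraries). Baz1a, Pml and Sp100 are higher in KO, Tet1 is lower, and the other 28 genes, in grey, did not pass the threshold.

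For 7 of the 32 genes (21.9%) no KO library lay within the WT range or the reverse, beside a background of 11.1% of all genes tested. The backgrounds for overlap also include less abundant genes and were not computed at matched abundance. Baz1a, Pml and Sp100 were above every WT library in every KO library, which makes 3 (background 6.23%), and Tet1, Ctcf, Wapl and Ctbp1 were below, which makes 4 (background 4.86%). The spread within groups was narrow: the SD of log2 CPM had a median of 0.082 in KO, against 0.073 in WT, and no library had fewer than 154 reads for any of the 32 genes.

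**Figure D3:**
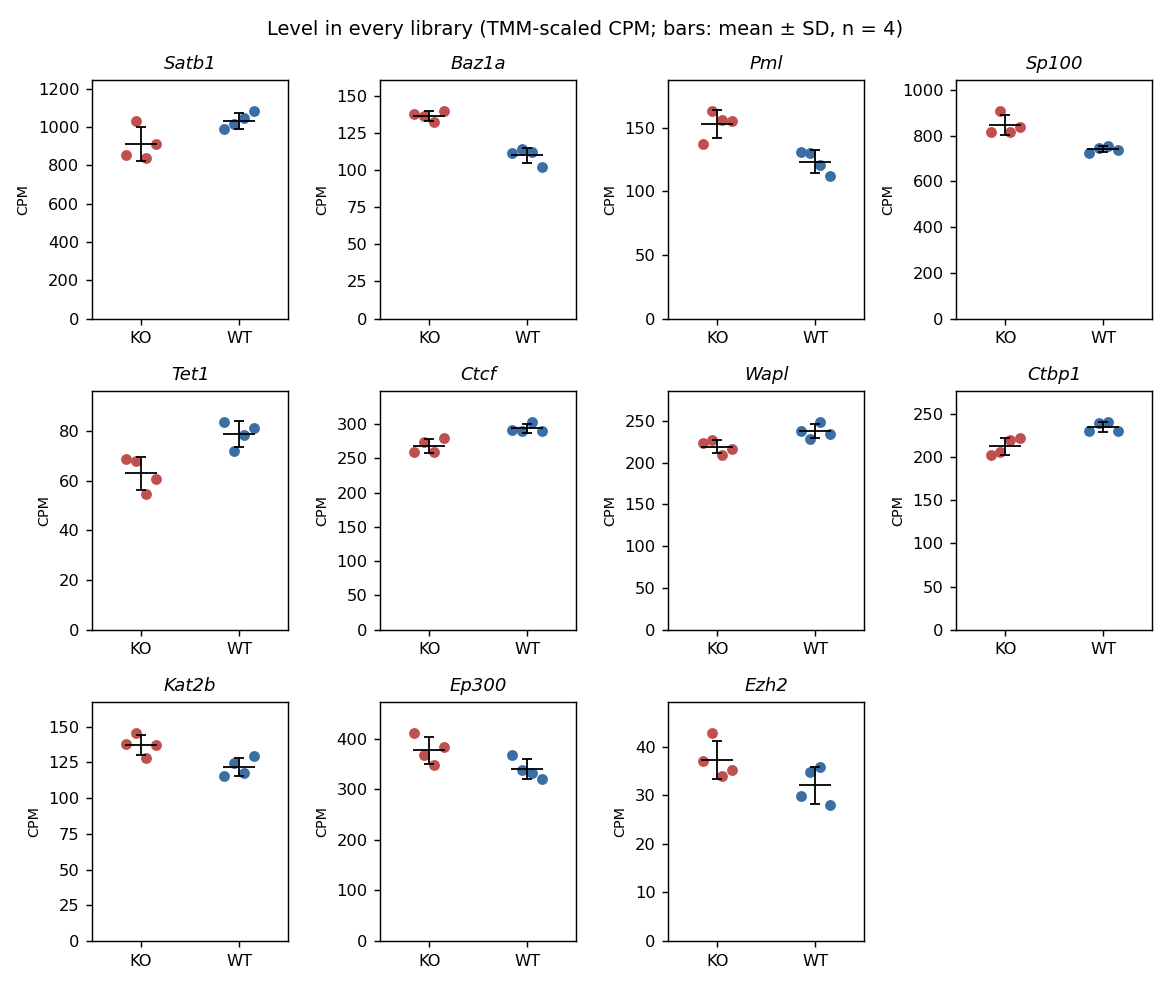
TMM-scaled CPM in every library for Satb1, the 4 changed genes and the 6 others with an unadjusted p under 0.05, KO left in red and WT right in blue, with mean ± SD (n = 4 each) and axes from 0. KO and WT points separate fully for Baz1a, Pml, Sp100, Tet1, Ctcf, Wapl and Ctbp1 and overlap for Satb1, Kat2b, Ep300 and Ezh2.

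Pml and Sp100 encode the scaffold and a founding component of PML nuclear bodies, and both are known as interferon-inducible genes. Their promoter windows (RefSeq, GRCm38.p6, 250 bases before to 50 after the annotated start) are shown because they rose together while the summed level of 15 interferon response genes was higher in the same libraries. Capitals mark a stretch in which 2 GAAA boxes are 3 bases apart (in the classical interferon response element such boxes are 2 bases apart). Here they lie on the opposite strand and read TTTC, any 3 bases, TTTC. The wider spacing was added after the Sp100 sequence had been seen.
Sp100, chr1:85649738-85650037, plus strand: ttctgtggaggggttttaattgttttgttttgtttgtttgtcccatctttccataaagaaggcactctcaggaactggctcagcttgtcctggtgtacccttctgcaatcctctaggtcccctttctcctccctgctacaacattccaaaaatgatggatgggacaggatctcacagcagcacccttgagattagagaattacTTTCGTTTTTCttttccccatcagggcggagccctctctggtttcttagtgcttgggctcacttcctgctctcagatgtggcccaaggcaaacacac
Pml, chr9:58249737-58250036, minus strand: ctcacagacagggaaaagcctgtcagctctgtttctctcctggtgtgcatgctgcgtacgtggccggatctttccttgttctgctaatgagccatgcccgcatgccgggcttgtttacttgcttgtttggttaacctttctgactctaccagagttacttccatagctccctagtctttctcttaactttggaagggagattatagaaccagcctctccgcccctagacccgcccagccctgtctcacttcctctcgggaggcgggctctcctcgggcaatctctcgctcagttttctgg

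Windows were held for 27 of the 32 genes. RefSeq gives Sp100 a pair of overlapping windows with different annotated starts. The match covers bases -47 to -37 from the start of the window shown and -73 to -63 from that of the other window. On either strand, 2.75% of all 32851 windows hold such a pair of boxes. Counted by gene, 3.17% of 27025 genes have a match, and 2 of the 27 genes do. Among the 27 genes, Smc1a, which did not pass the test for a change, was the other with a match. The same boxes 2 bases apart are in 3.44% of all windows (3.99% of genes), and TTCNNNGAA, the STAT-type palindrome, is in 8.30% (9.55% of genes). Neither was found in a window of the 27 genes, which says only that those letters are not in these stretches. CG dinucleotides numbered 2 in the Sp100 window and 11 in the Pml window, against a median of 27 over the windows of the 27 genes and 7 over all windows.

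Pml (ENSMUSG00000036986.16, chromosome 9, minus strand) had 137, 163, 156 and 155 CPM in the KO libraries, against 131, 130.3, 121 and 112 CPM in the WT libraries. All KO libraries were above all WT libraries, with a narrow gap between the lowest KO and the highest WT library. It rose 1.25-fold (log2 fold change 0.32, SE 0.066, edgeR adjusted p = 0.00178), and passed in all 18 alternatives.

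Sp100 (ENSMUSG00000026222.16, chromosome 1, plus strand) had 815, 908, 818 and 839 CPM in the KO libraries, against 725, 748, 755 and 736 CPM in the WT libraries. The groups did not overlap, and the KO libraries were more scattered (SD 43.3 CPM) than the WT libraries (SD 13.1 CPM). It rose 1.14-fold (log2 fold change 0.19, SE 0.052, edgeR adjusted p = 0.0207). The call was lost without Sample_2908_KO, Sample_2911_WT, Sample_2913_WT or Sample_2915_WT (adjusted p 0.0572 to 0.0716) and without Sample_2911_WT and Sample_2914_WT together (0.119). Repeated partial copies of Sp100 are known in the mouse genome, and how the counter treated reads shared with them is stated in no source used here.

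The summed level of the interferon response genes was 1184, 1481, 1288 and 1214 CPM in the KO libraries, and 938, 863, 736 and 722 CPM in the WT libraries. Sample_2908_KO had the highest value of this sum, of Pml and of Sp100. Among the WT libraries, Sample_2911_WT had the highest sum and the highest Pml (131 CPM) but the lowest Sp100 (725 CPM). The part of the interferon response in the Pml and Sp100 values was not tested. Of the 15 genes, 13 rose and 0 fell. Of 24 other tested nuclear body genes, 1 rose and 0 fell, which is 4.17%, beside 6.39% of all genes tested. That gene was Isg20, an interferon-induced exonuclease, at 21.8 ± 2.86 CPM in KO, against 14.4 ± 2.41 CPM in WT (SD, n = 4 each; log2 fold change 0.63, edgeR adjusted p = 0.00268). Isg20 did not pass without Sample_2911_WT and Sample_2914_WT together (adjusted p = 0.0520). Sp110, a close relative of Sp100, stood at 139.0 CPM in KO, against 138.9 CPM in WT (adjusted p = 0.976). Daxx, a histone chaperone of the same bodies, gave 0.23 on the log2 fold change scale (adjusted p = 0.0934). The log2 ratio of Pml to Sp100 reads within a library differed by 0.12 between KO and WT (exact 2-sided permutation test, p = 0.171, 0.300 adjusted over the 14 pairs compared). With 4 against 4 libraries and 14 pairs, no pair could pass after adjustment unless at least 9 pairs had the smallest possible p of 0.0286, so the adjusted values of the pairs say little either way.

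Baz1a (ENSMUSG00000035021.13, chromosome 12, minus strand) encodes ACF1, the regulatory partner of the ISWI ATPase SMARCA5, with which it spaces nucleosomes. It had 137, 136, 132 and 139.7 CPM in the KO libraries, against 111, 114, 112 and 102 CPM in the WT libraries. The 2 groups were well apart, with 132 CPM the lowest KO value and 114 CPM the highest WT value. Baz1a rose 1.24-fold (log2 fold change 0.31, SE 0.060, edgeR adjusted p = 0.000713) and passed in all 18 alternatives.

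Smarca5, the ATPase that BAZ1A works with, had 92.8, 99.2, 90.3 and 96.4 CPM in the KO libraries, against 88.2, 97.7, 88.3 and 102 CPM in the WT libraries. The groups overlapped (log2 fold change 0.01, SE 0.067, edgeR adjusted p = 0.960). The libraries had 1.48, 1.37, 1.46 and 1.45 Baz1a reads per Smarca5 read in KO, against 1.26, 1.17, 1.27 and 1.0 in WT. The ratio was higher in every KO library, with a difference of 0.30 on the log2 scale. The exact 2-sided permutation test gave p = 0.0286, the smallest that 4 against 4 libraries allow, and 0.133 after adjustment over the 14 pairs. The ratio does not depend on how libraries are scaled to each other.

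Neither BAF gene of the set passed the test. Arid1a, the DNA-binding subunit of the canonical BAF complex, averaged 795 ± 39.1 CPM in KO, against 778 ± 51.7 CPM in WT, and Smarca4, its ATPase, 238 ± 14.9 CPM in KO, against 239.6 ± 10.1 CPM in WT (SD, n = 4 each; edgeR adjusted p = 0.827 and 0.962). Among 23 further tested BAF genes 1 rose, which is 4.35%, beside 6.39% of all genes tested. It was Dpf2, which encodes a histone-reading subunit (log2 fold change 0.24, adjusted p = 0.0355). The Dpf2 call held in 9 of 18 alternatives.

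Of 18 other tested ISWI, CHD and INO80 family genes, 2 rose and 1 fell. That is 16.7%, beside 6.39% of all genes tested. It was the highest share among 9 lists of other chromatin genes, which together had 4.44%. Chd9, a CHD family remodeller, rose (152 ± 8.42 CPM in KO, against 124 ± 6.11 CPM in WT, log2 fold change 0.29, edgeR adjusted p = 0.00176). Baz2b, a bromodomain relative of Baz1a, rose as well (119 ± 2.45 CPM in KO, against 100.2 ± 4.88 CPM in WT, log2 fold change 0.25, adjusted p = 0.00972). Chd7, the CHD remodeller mutated in CHARGE syndrome in humans, fell to 262 ± 13.9 CPM in KO, against 318 ± 27.8 CPM in WT (log2 fold change -0.28, adjusted p = 0.00253; SD, n = 4 each in all 3). Baz2b and Chd7 lost their calls without Sample_2911_WT and Sample_2914_WT together (adjusted p 0.208 and 0.0784), and Chd9 passed in all 18 alternatives.

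Tet1 (ENSMUSG00000047146.17, chromosome 10, minus strand), one of 3 dioxygenases that oxidise methylated cytosine, was the gene of the set that fell. It had 68.5, 68.0, 54.8 and 60.5 CPM in the KO libraries, against 83.6, 71.7, 78.2 and 81.3 CPM in the WT libraries. The highest KO library lay just below the lowest WT library, Sample_2913_WT. The log2 fold change was -0.32 (SE 0.078, edgeR adjusted p = 0.00775), and the call was lost without Sample_2911_WT and Sample_2914_WT together (log2 fold change -0.29, adjusted p = 0.120).

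Its relatives did not pass. Tet2 had 93.9, 101, 76.5 and 88.8 CPM in the KO libraries, against 93.6, 98.9, 94.1 and 106 CPM in the WT libraries (log2 fold change -0.13, SE 0.074, edgeR adjusted p = 0.390). Tet3 had 475, 419, 433 and 463 CPM in the KO libraries, against 454, 486, 451 and 425 CPM in the WT libraries (log2 fold change -0.02, SE 0.056, adjusted p = 0.912). The groups overlapped for both. The log2 ratio of Tet1 to Tet2 reads differed by -0.19 and that of Tet1 to Tet3 reads by -0.31, each with an exact 2-sided permutation p of 0.0571, or 0.133 adjusted over the 14 pairs. In every library Tet3 was the most abundant of the 3 by reads. Per kilobase of annotated exon, Tet3 stood at 26.8 ± 1.56 CPM in KO, against 27.2 ± 1.5 CPM in WT, Tet2 at 5.33 ± 0.602 CPM in KO, against 5.82 ± 0.339 CPM in WT, and Tet1 at 4.07 ± 0.424 CPM in KO, against 5.09 ± 0.332 CPM in WT (SD, n = 4 each).

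Neither DNA methyltransferase gene passed the test. Dnmt1, which copies methylation after replication, averaged 235 ± 11.3 CPM in KO, against 229 ± 11.2 CPM in WT (SD, n = 4 each; edgeR adjusted p = 0.801), and Dnmt3a, which sets it anew, 128 ± 10.1 CPM in KO, against 132 ± 7.95 CPM in WT (adjusted p = 0.799). Ezh2, the Polycomb histone methyltransferase, was the least abundant by CPM of the 32 genes in both groups. It had 37.1, 42.8, 34.0 and 35.1 CPM in the KO libraries, against 29.7, 34.8, 35.7 and 27.9 CPM in the WT libraries, and the groups overlapped (log2 fold change 0.21, SE 0.102, adjusted p = 0.263). Of 16 other tested genes of DNA methylation 0 rose and 1 fell, which is 6.25%, beside 6.39% of all genes tested. The gene that fell was Idh2, which encodes a mitochondrial isocitrate dehydrogenase that makes 2-oxoglutarate, a compound that TET enzymes consume. Any link to Tet1 was not tested. Idh2 stood at 54.1 ± 5.65 CPM in KO, against 73.0 ± 3.35 CPM in WT (SD, n = 4 each; log2 fold change -0.43, edgeR adjusted p = 0.000375). It passed in all 18 alternatives. Of 25 other tested Polycomb genes 0 changed by edgeR, DESeq2 or limma, with 3 at an unadjusted p under 0.05 in edgeR. Over all genes tested the edgeR shares were 6.39% and 18%.

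In the loop group, 0 of 8 genes passed with edgeR, DESeq2 or limma, and 2 (Ctcf and Wapl) had an unadjusted p under 0.05 in edgeR. These counts are near the shares over all genes tested, 6.39% called and 18% at an unadjusted p under 0.05. Ctcf, the loop anchor, had 259, 274, 259 and 279 CPM in the KO libraries, against 291, 290.2, 303 and 290.5 CPM in the WT libraries. Every KO library was below every WT library, but the difference (log2 fold change -0.13, SE 0.052) missed the threshold after adjustment over all genes (edgeR adjusted p = 0.143). Wapl, the cohesin release factor, had 224, 227, 209 and 217 CPM in the KO libraries, against 238, 229, 249 and 235 CPM in the WT libraries. It too had no overlap between the groups and did not pass (log2 fold change -0.12, SE 0.054, adjusted p = 0.236).

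The genes of the cohesin ring, its loader and its alternative subunits did not pass either. Rad21 averaged 218 ± 13.3 CPM in KO, against 210.2 ± 7.91 CPM in WT, Smc1a 243 ± 7.99 CPM in KO, against 240.0 ± 8.75 CPM in WT, and Smc3 149.5 ± 6.09 CPM in KO, against 150.1 ± 7.87 CPM in WT (SD, n = 4 each). Their log2 fold changes ran between -0.01 and 0.05. The alternative STAG subunits Stag1 and Stag2 had log2 fold changes of -0.11 and -0.09 (edgeR adjusted p = 0.425 and 0.419), and the ratio of Stag1 to Stag2 reads was 0.360 to 0.401 in KO, against 0.351 to 0.415 in WT. Nipbl, the loader, was at -0.01 (adjusted p = 0.950). Rad21 reads per Ctcf read numbered 0.774, 0.851, 0.840 and 0.791 in the KO libraries, against 0.689, 0.734, 0.724 and 0.714 in the WT libraries. The ratio was higher in every KO library (log2 difference 0.19, exact 2-sided permutation p = 0.0286, 0.133 adjusted over the 14 pairs). Of 18 other tested genes of cohesin, condensin and loop factors, 0 changed by edgeR, DESeq2 or limma and 2 had an unadjusted p under 0.05 in edgeR. The edgeR shares over all genes tested were 6.39% and 18%.

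Among deacetylase and corepressor genes, 0 of 5 passed with edgeR, DESeq2 or limma and 1, Ctbp1, had an unadjusted p under 0.05 in edgeR, near the shares over all genes tested (6.39% and 18%). Ctbp1 encodes a corepressor that binds SATB1. It had 202, 205, 219.6 and 222 CPM in the KO libraries, against 230.4, 239, 241 and 229.6 CPM in the WT libraries, with no overlap (log2 fold change -0.15, SE 0.054, edgeR adjusted p = 0.116). The NuRD genes Chd4 (its ATPase) and Mta2 were at 739 ± 35.3 CPM in KO, against 716 ± 24.3 CPM in WT, and at 340.1 ± 16.1 CPM in KO, against 326 ± 8.14 CPM in WT (SD, n = 4 each). The deacetylase genes Hdac1 and Hdac2, which SATB1 recruits, had log2 fold changes of 0.00 and -0.09 (adjusted p = 0.992 and 0.501). Of 19 other tested NuRD and corepressor genes 0 changed by edgeR, DESeq2 or limma and 4 had an unadjusted p under 0.05.

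Of 3 acetyltransferase genes, 0 passed with edgeR, DESeq2 or limma, and 2 (Kat2b and Ep300) had an unadjusted p under 0.05 in edgeR, beside 6.39% and 18% of all genes tested. Kat2b, which encodes PCAF, a SATB1 partner, had 138, 145, 128 and 138 CPM in the KO libraries, against 116, 125, 118 and 129 CPM in the WT libraries. A single KO library, Sample_2909_KO, fell inside the WT range (log2 fold change 0.17, SE 0.061, edgeR adjusted p = 0.101). Ep300, which encodes the coactivator p300, had 411, 368, 348 and 383 CPM in the KO libraries, against 367, 338, 331 and 321 CPM in the WT libraries. Its groups overlapped through Sample_2909_KO and Sample_2911_WT (log2 fold change 0.15, SE 0.058, adjusted p = 0.121). Its paralog Crebbp was at 250.2 ± 19.8 CPM in KO, against 241 ± 10.4 CPM in WT (SD, n = 4 each; adjusted p = 0.714). The ratio of Ep300 to Crebbp reads was 1.47 to 1.56 in KO, against 1.38 to 1.43 in WT, higher in every KO library (log2 difference 0.10, exact 2-sided permutation p = 0.0286, 0.133 adjusted over the 14 pairs). Of 24 other tested acetylation genes 1 rose, the nuclear receptor coactivator gene Ncoa3 (426 ± 37.8 CPM in KO, against 359 ± 7.11 CPM in WT, SD, n = 4 each; log2 fold change 0.25, edgeR adjusted p = 0.00612). It lost its call without Sample_2911_WT and Sample_2914_WT together (adjusted p = 0.0696).

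The remaining DNA-binding genes did not pass. Bcl11b, a zinc finger gene needed for T cell identity, averaged 559 ± 41.6 CPM in KO, against 598 ± 31.5 CPM in WT, Cux1, a CUT-domain homeobox gene, 116 ± 7.16 CPM in KO, against 108 ± 2.79 CPM in WT, and Hmgb1, which encodes a DNA-bending protein, 100.2 ± 4.94 CPM in KO, against 98.4 ± 10.6 CPM in WT (SD, n = 4 each; edgeR adjusted p = 0.383, 0.421 and 0.848). Hmgb1 has many processed pseudogenes that could share its reads. Of 13 other tested genes of the nuclear matrix and related DNA-binding proteins 1 rose. This was Lmna, which encodes lamins A and C, with 11.7, 8.11, 8.0 and 7.5 CPM in the KO libraries, against 4.63, 4.87, 2.59 and 4.41 CPM in the WT libraries. All KO libraries were above all WT libraries (log2 fold change 1.18, SE 0.231, adjusted p = 0.000975), and the call held in all 18 alternatives. Counted over all 9 lists of other chromatin genes, 8 of 180 tested genes changed, 6 higher and 2 lower. This is 4.44%, beside the background of 6.39%. The order turned without Sample_2908_KO, where 14 of 180 (7.78%) changed beside 7.06% of all genes tested. It also turned without a count filter (10 of 196, 5.1%, beside 3.78%) and, narrowly, without Sample_2913_WT (9 of 180, 5.0%, beside 4.78%). In the other alternatives the share stayed below that of all genes tested. Without Sample_2911_WT and Sample_2914_WT together 4 of 181 (2.21%) changed beside 3.94%.

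Between genes, levels were compared per kilobase of annotated exon. By this measure Sp100 was highest, at 112 ± 5.73 CPM per kilobase in KO, against 98.1 ± 1.74 in WT, followed in WT by Chd4, Mta2, Bcl11b, Arid1a, Ctcf and Satb1. Chd4 stood at 92.2 ± 4.40 in KO, against 89.3 ± 3.02 in WT, and Satb1 at 47.8 ± 4.58 in KO, against 54.3 ± 2.17 in WT. The WT values of Satb1, Nipbl, Ctbp1 and Rad21, from 54.3 to 49.7 CPM per kilobase, differed between neighbours in this order by less than the sum of their SDs. Ezh2, Tet1, Cux1 and Tet2 were lowest, from 4.79 to 5.82 CPM per kilobase in WT, and neighbours among them also differed by less than the sum of their SDs. The place of Satb1 depends on the length taken: divided by its longest annotated transcript (6243 bases) in place of all its annotated exon bases (19027), it was 146 CPM per kilobase in KO, against 165 in WT, and ranked 2 rather than 7 of 32.

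**Figure D4:**
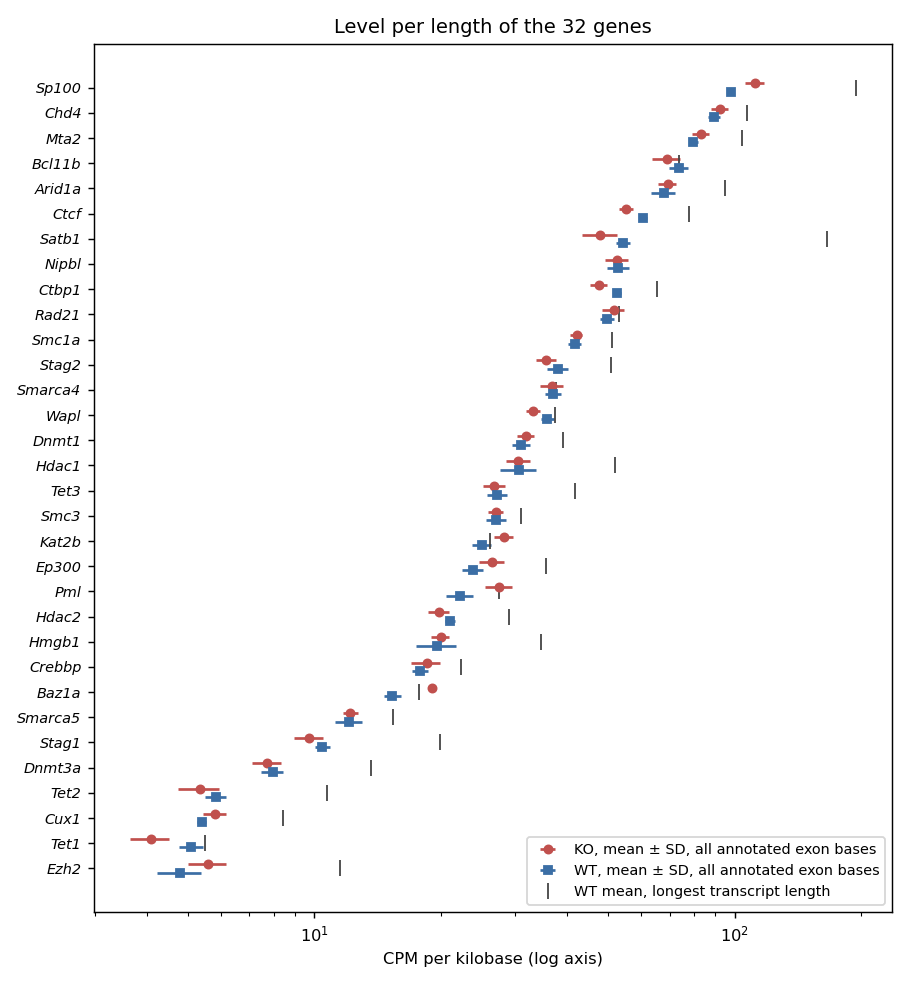
Level per kilobase of annotated exon on a log axis for the 32 genes, ordered by the WT mean, with KO in red and WT in blue (mean ± SD, n = 4 each) and the WT mean over the longest transcript as a tick. Sp100 is highest by both lengths, and Satb1 moves from rank 7 to rank 2 when the longest transcript is used.

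Of the 14 ratios between paralogs or complex partners, 3 had the smallest p that the design allows (exact 2-sided permutation test, 0.0286): Baz1a to Smarca5, Rad21 to Ctcf, and Ep300 to Crebbp. Since at least 9 would have been needed for any to pass after adjustment, the count of 0 that passed was close to fixed by the design. The ratios of Mta2 to Chd4, Stag1 to Stag2 and Smc1a to Smc3 differed least, by 0.01, -0.02 and 0.02 on the log2 scale. Hdac1 to Hdac2 and Arid1a to Smarca4 differed by 0.09 and 0.04, with overlap between the groups.

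**Figure D5:**
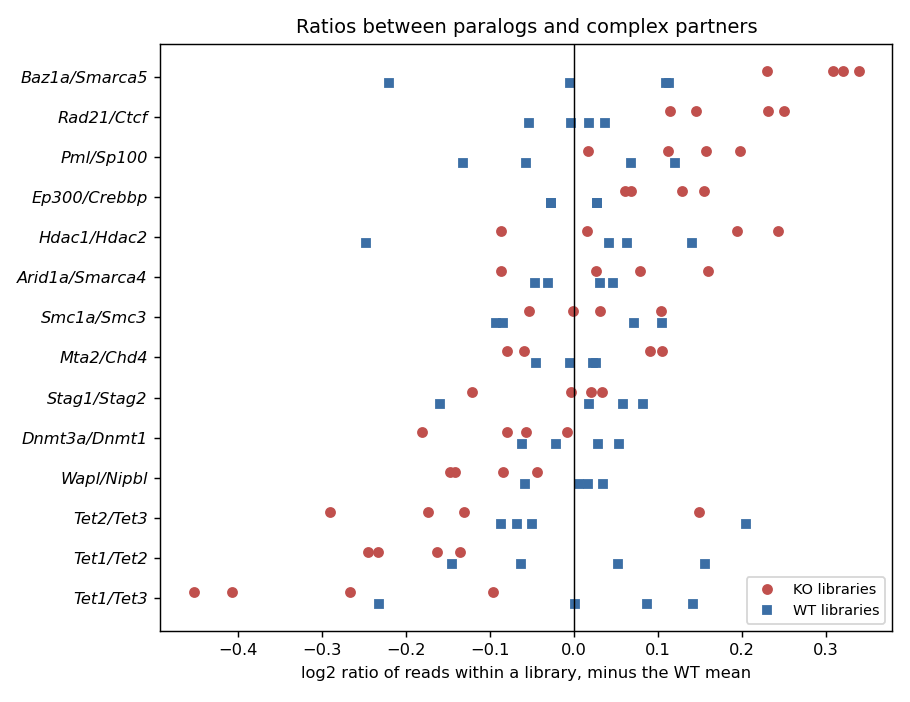
Log2 ratio of reads of 2 genes within each library, minus the WT mean of that pair, for 14 pairs, with KO libraries as red circles above WT libraries as blue squares. The groups do not overlap for Baz1a/Smarca5, Rad21/Ctcf and Ep300/Crebbp, with differences of 0.30, 0.19 and 0.10 between the group means.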

How the data were processed

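The deposited count table holds raw whole-number read counts for 53465 gene IDs, per the file headers and values. The deposited normalized signal table holds 16418 genes with at least 10 reads over the 8 samples, in which every count was scaled by a single factor for its sample. Per the submitters' processing notes, the build was mm10 and the tools included DESeq2 1.22.2 under R 3.5.3, with FastQC and CASAVA 1.8.2. The sources used here do not give aligner, counter or annotation.

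Tests were run on the counts in edgeR 4.0.16 under R 4.3.3 (TMM scaling, filterByExpr, which kept 11772 genes, and robust quasi-likelihood F tests of 4 KO and 4 WT libraries), with Benjamini-Hochberg adjustment over all tested genes and a threshold of 0.05. The SE of a log2 fold change is its size divided by the root of F. Positions and exon lengths came from GENCODE M21 (GRCm38, the assembly of mm10). Ratios of 14 gene pairs were tested by exact 2-sided permutation over the 70 relabellings. The labels give no batch, litter or pairing, so the groups were compared unpaired, and a pairing that the labels omit is not excluded.

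The genes, lists, pairs and naming rule were chosen with earlier results of these data known. Values per library are given for Satb1, genes with an unadjusted p under 0.05, and partners of changed genes. The marker and chromatin lists were read from the same fit. Other fits used DESeq2 1.42.0, limma 3.58.1 (sample-weighted limma-voom, and limma-trend on log2 of normalized value plus 1), other scalings, filters, thinning to 5227758 reads, and samples left out.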

Additional observations from a re-analysis of the deposited data

Results flagged for a closer look

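Dixon's test on the 4 libraries of each group marked 4 of 64 group values among the 32 genes, and chance marks about 1 in 20. Hmgb1 in Sample_2914_WT (82.6 CPM) was below the other WT libraries (102 to 105.0 CPM), and Ctcf in the same library (303 CPM) was above them (290.2 to 291 CPM). In Sample_2908_KO, Smc3 (159 CPM) was above the other KO libraries (146 to 147 CPM) and Mta2 (316 CPM) was below them (346 to 350.2 CPM). None of these 4 genes changed between the groups.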

How the results depend on the processing

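Baz1a and Pml passed in all 18 alternatives, Tet1 in 17 and Sp100 in 13. Satb1 passed in 4: limma-voom with sample weights (log2 fold change -0.19), library size only (-0.20), no count filter (-0.19) and without Sample_2908_KO, which made 2 genes of the set lower in place of 1 in each. Leaving out 1 sample gave Satb1 values of -0.25 to -0.15, 562 to 836 changed genes, 368 to 500 higher and 191 to 336 lower, 3 to 4 changed genes of the set (2 to 3 higher, 1 to 2 lower) and 7 to 14 changed genes in the other chromatin lists, 14 without Sample_2908_KO. Without Sample_2911_WT and Sample_2914_WT together, 481 genes changed, 158 of them lower, and 2 of the set (Baz1a and Pml), 0 of them lower, and 4 in the other lists; the cause was not tested. With the longest transcript as length Satb1 ranked 2 of 32. Genes near 0 changed sign without passing, on the log2 scale. Hdac1 was -0.00032 with DESeq2, -0.012 with library size only, -0.0021 with limma-trend and -0.096 without the WT pair. Smarca5 was -0.0037 with library size only and -0.076 without the WT pair, and Nipbl and Smarca4 were 0.0047 and 0.012 with thinning and 0.046 and 0.025 without that pair, where Hmgb1 was -0.037 and Smc3 0.025. Leaving out 1 sample gave Arid1a -0.0066 to 0.063, Hdac1 -0.075 to 0.038, Hmgb1 -0.048 to 0.070, Nipbl -0.043 to 0.030, Smarca4 -0.045 to 0.027, Smarca5 -0.025 to 0.053, Smc1a -0.0043 to 0.038, Smc3 -0.039 to 0.024 and Tet3 -0.052 to 0.012. No paired analysis was possible because the labels give no pairing between the groups. SE between 0.052 and 0.102 on the log2 scale limit what can be seen.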
